A study of Homo sapiens with 9 samples.

Results

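The genes of the mitochondrial genome were taken as all rows of the deposited count table whose chromosome is given as MT. There were 37 of them among 58336 genes listed: 13 coding for protein, 2 for ribosomal RNA and 22 for transfer RNA. The RNA came from HaCaT, a human keratinocyte cell line that is immortalised. By the labels the study has 9 samples, 3 in each of 3 groups. The first group was taken 12 h and the next 48 h after low-dose photodynamic therapy, in which 5-aminolevulinic acid at 0.5 mmol per litre was followed by 3 J per square centimetre of red light at 635 ± 5 nm. The third group is a control labelled as untreated. All 3 groups are the same cell line. Replicates are not said to be separate cultures, and p-values here measure only a spread that may be technical. The control libraries are headed Nc1, Nc2 and Nc3, a stem read as an abbreviation for control. The 6 other library columns carry headings that match neither treated group, so their values were not used and treatment was not compared with control. The values below describe control cells, with errors given as SD over n = 3 libraries.

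The human mitochondrial genome is a small circle of DNA without introns that is copied into long RNAs from both strands. These RNAs are cut into messenger, ribosomal and transfer RNAs, in large part at the transfer RNAs that lie between the other genes. The messenger RNAs code for membrane subunits of the respiratory chain complexes I, III and IV and of the ATP synthase, complex V, while all other subunits and all factors that copy, cut, stabilise and translate these RNAs come from nuclear genes. Mitochondria also house the first and last steps of heme synthesis, to which 5-aminolevulinic acid belongs.

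The gene layout in the deposited table is compact, and it bears on which counts can be told apart. On GRCh38, all 37 genes have the same start, end and strand in GENCODE release 29 as in the table. The plus strand holds 12 messenger RNAs, both ribosomal RNAs and 14 transfer RNAs. The minus strand holds MT-ND6 and 8 transfer RNAs. Of the 36 junctions between neighbours, which leave out the control region between MT-TP and MT-TF, 20 abut with no base between them, 11 have a gap of 1 to 31 bases with a median of 3, and 5 overlap. A transfer RNA gene lies within 10 bases of 14 of the 15 messenger and ribosomal RNA genes. The exception is MT-ATP6, which is flanked by other messenger RNAs.

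The longest overlap is that of MT-ATP8 and MT-ATP6, which are translated from a shared messenger RNA. It spans 46 bases, from 8527 to 8572. MT-ND4L and MT-ND4, likewise on a shared messenger RNA, overlap by 7 bases. The sequences of both overlaps are shown because a read that covers them lies on both genes. In the first, capitals mark the start codon of MT-ATP6 and the stop codon of MT-ATP8. In the second, capitals mark the 7 shared bases, which hold the start codon of MT-ND4 and the stop codon of MT-ND4L. Both were read 5′ to 3′ on the plus strand from the GENCODE release 29 transcripts.
MT-ATP8 and MT-ATP6, MT:8527-8572: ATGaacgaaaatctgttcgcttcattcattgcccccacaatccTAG
MT-ND4L and MT-ND4, MT:10748-10778: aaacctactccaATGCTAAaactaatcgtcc

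Messenger RNAs of mitochondria carry almost no untranslated sequence, and some lack a full stop codon until a poly(A) tail is added. In the annotated sequences, 7 of the 13 end on a whole codon. Of the other 6, 5 end on a lone T and 1, MT-ND1, on TA, which adenines of the tail would complete to TAA. The last 30 bases are shown for 6 messenger RNAs, 1 for each kind of end, with the stop codon, or the part of it that the genome encodes, in capitals. AGA and AGG, at the ends of MT-CO1 and MT-ND6, are not read as arginine in human mitochondria.
MT-CO1, MT:7416-7445, plus strand: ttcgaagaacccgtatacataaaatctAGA
MT-CO2, MT:8240-8269, plus strand: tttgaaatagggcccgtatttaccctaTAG
MT-ATP6, MT:9178-9207, plus strand: gtaagcctctacctgcacgacaacacaTAA
MT-ND4, MT:12108-12137, plus strand: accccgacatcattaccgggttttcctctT
MT-ND1, MT:4233-4262, plus strand: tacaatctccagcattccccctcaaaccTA
MT-ND6, MT:14149-14178, minus strand: attgtaattgagattgctcgggggaatAGG

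The strand also showed in base composition. MT-ND6 contains 35.6% G and 7.05% C, whereas the 12 messenger RNAs of the plus strand contain 6.28% to 16.2% G and 29.5% to 36% C. The GC content of all 13 lies between 39.6% and 47.7%.

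Mitochondrial genes held 8.13% of the counts of Nc1, 8.65% of Nc2 and 7.92% of Nc3, a mean of 8.23 ± 0.378%. The library totals were 16989712, 16354678 and 16702425 counts, so these shares rest on 1381714, 1415240 and 1322379 counts and their 95% exact binomial intervals are narrower than the differences between libraries. Intervals cover counting error only. Messenger RNAs took 88.5 ± 0.794% of the mitochondrial counts, ribosomal RNAs 10.9 ± 0.849% and transfer RNAs 0.645 ± 0.0798%. The plus strand took 98 ± 0.175% and the minus strand 2.05 ± 0.175%. Strand here and below is that of the annotated gene. The sources used here do not give whether counting used the strand of the reads, so RNA of the opposite strand may be included.

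Among the messenger RNAs, the 3 subunits of cytochrome c oxidase, complex IV, led by count. They took 47.2%, 45.4% and 45% of the mitochondrial counts in Nc1, Nc2 and Nc3. The 7 subunits of NADH dehydrogenase, complex I, took 27.6%, 29.8% and 30.4%. The 2 subunits of the ATP synthase took 6.98 ± 0.186% and MT-CYB, the only complex III subunit of this genome, 6.31 ± 0.479%. Nc1 thus had the highest share of complex IV and the lowest share of complex I of the 3 libraries.

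**Figure D1:**
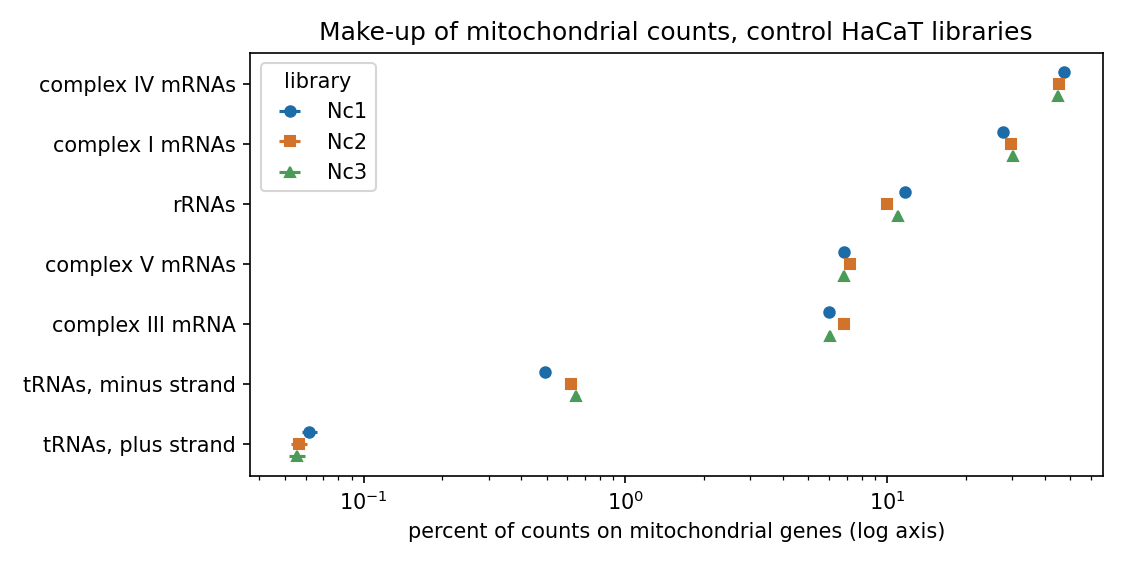
Share of the mitochondrial counts on each class of gene, in percent on a log axis, with 1 marker per control library and horizontal bars for the 95% exact binomial interval, which is mostly hidden by the marker. Complex IV messenger RNAs lie between 45% and 47.2%, and plus-strand transfer RNAs lie near 0.0582%.

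FPKM, the authors' value scaled to annotated gene length and library size, was used to compare genes of different length. It compares RNAs only as far as the annotated length is that of the RNA. The 13 messenger RNAs ranged from 2301 ± 324 FPKM for MT-ND6 to 13917 ± 1273 FPKM for MT-CO1, with a median of 5647 FPKM. All 13 had at least 10 counts in each library, a rule that 21.8% of all listed genes and 57% of protein-coding genes outside the mitochondrial genome met. The levels of the members of 1 complex were closest in complex V and most spread in complex I.

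MT-CO1, the catalytic subunit of cytochrome c oxidase (ENSG00000198804, 5904 to 7445, plus strand), had 13539, 15336 and 12876 FPKM in Nc1, Nc2 and Nc3. MT-CO3, another core subunit (ENSG00000198938, 9207 to 9990), had 12202, 14330 and 12643 FPKM. MT-CO1 exceeded MT-CO3 in each library, by 1.07 ± 0.0457 times. MT-CO2, which takes electrons from cytochrome c (ENSG00000198712, 7586 to 8269), had 9117, 9542 and 8379 FPKM. These were the 3 highest messenger RNAs of the genome in every library. Nc2 had the highest FPKM of each.

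The complex I messenger RNAs lay at 2 levels. MT-ND4L (ENSG00000212907, 10470 to 10766) had 6438, 8065 and 7274 FPKM in Nc1, Nc2 and Nc3. MT-ND4 (ENSG00000198886, 10760 to 12137), a proton-pumping subunit that shares its messenger RNA, had 6014, 7828 and 6687 FPKM. The ratio of MT-ND4L to MT-ND4 was 1.07, 1.03 and 1.09, so the FPKM of both genes were nearly the same. How reads over their shared bases were assigned is not given in the sources used here. The other complex I genes lay lower. MT-ND2 (ENSG00000198763, 4470 to 5511) had 2722, 3582 and 3108 FPKM. MT-ND1 (ENSG00000198888, 3307 to 4262) had 2559, 3176 and 2819 FPKM. MT-ND2 stood above MT-ND1 in each library, by 1.1 ± 0.0325 times.

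MT-ND3 (ENSG00000198840, 10059 to 10404), MT-ND5 (ENSG00000198786, 12337 to 14148) and MT-ND6 (ENSG00000198695, 14149 to 14673, minus strand) were the lowest messenger RNAs. MT-ND3 had 2442, 2851 and 2466 FPKM in Nc1, Nc2 and Nc3. MT-ND5 had 2244, 2698 and 2536 FPKM, and the order of this pair changed between libraries. MT-ND6, the only messenger RNA of the minus strand, had 2000.3, 2644 and 2260 FPKM. Its ratio to MT-ND5, which ends at the neighbouring base on the other strand, was 0.921 ± 0.0512. MT-CO1 exceeded MT-ND6 by 6.09 ± 0.59 times. Whether the authors' counting used the strand of the reads is not given in the sources used here. RNA of the strand opposite to MT-ND6 therefore cannot be told apart from it.

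MT-ATP6, the proton channel subunit of the ATP synthase (ENSG00000198899, 8527 to 9207), had 6334, 7621 and 6305 FPKM. MT-ATP8 (ENSG00000228253, 8366 to 8572) had 4913, 6604 and 5424 FPKM. The ratio of MT-ATP8 to MT-ATP6 was 0.776, 0.867 and 0.86, below 1 in each library although both lie on a shared messenger RNA. The 46 shared bases make up part of the 207 bases of MT-ATP8 and of the 681 bases of MT-ATP6, and how reads over them were assigned is not given in the sources used here. MT-CYB, cytochrome b of complex III (ENSG00000198727, 14747 to 15887), had 4083, 5480 and 4185 FPKM, and its coefficient of variation of 18.7% was the highest of the 13.

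The ribosomal RNAs stood far apart. MT-RNR2, the 16S RNA of the large mitoribosomal subunit (ENSG00000210082, 1671 to 3229), had 4983, 4904 and 4695 FPKM in Nc1, Nc2 and Nc3. MT-RNR1, the 12S RNA of the small subunit (ENSG00000211459, 648 to 1601), had 1389, 1561 and 1385 FPKM, below every messenger RNA of the genome. The ratio of MT-RNR2 to MT-RNR1 was 3.59, 3.14 and 3.39. Both RNAs are part of each ribosome, and the way RNA was selected for the libraries is not given in the sources used here. Its part in these levels was not tested.

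In the order of the 15 messenger and ribosomal RNAs by mean FPKM, 10 of the 14 neighbouring pairs kept their order in all 3 libraries. The 4 pairs that did not were MT-ND4 and MT-ATP6, MT-ATP8 and MT-RNR2, MT-RNR2 and MT-CYB, and MT-ND3 and MT-ND5. Each of these kept its order in 2 libraries.

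**Figure D2:**
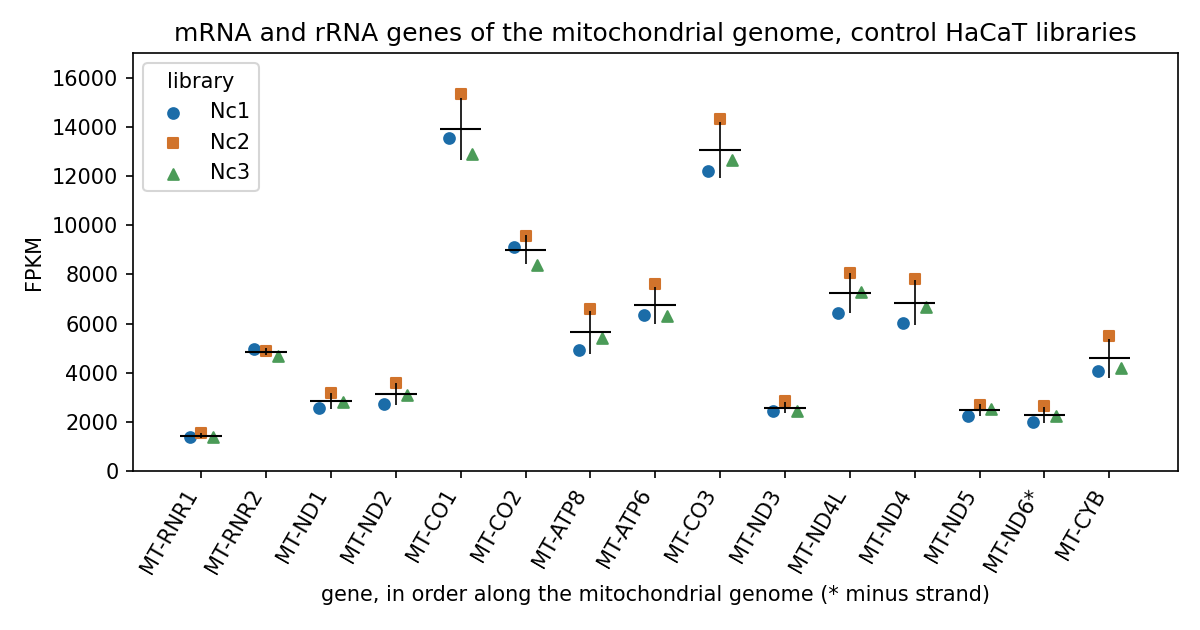
FPKM of the 15 messenger and ribosomal RNA genes in their order along the genome, with markers for the control libraries, a horizontal line for the mean and a vertical line for 1 SD (n = 3). MT-CO1 and MT-CO3 stand highest, MT-RNR1 stands lowest at 1445 FPKM, and Nc2 is the highest library for every gene but MT-RNR2.

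Transfer RNAs showed the widest range and a strong dependence on the gene. MT-TN, MT-TC and MT-TP, for asparagine, cysteine and proline, took 85.6 ± 2.02% of all counts on the 22 transfer RNA genes. All 3 lie on the minus strand. Summed over the 8 transfer RNA genes of the minus strand, Nc1 had 6806 counts, Nc2 had 8769 and Nc3 had 8583. The sums over the 14 genes of the plus strand were 857, 803 and 737. Mature transfer RNAs are far shorter than a read of 150 bases, so these counts may include longer RNAs that run across the gene. The sequences of the 3 leading genes and of MT-TA, next to MT-TN, are shown with the anticodon in capitals. The anticodon was located by a search for a loop of 7 bases, with T before the anticodon, closed by a stem of 5 base pairs. The same search gave a stem of 5 pairs at 1 place in 14 of the 22 genes, 4 pairs in 6 genes and none in MT-TM and MT-TS2. All 4 sequences are minus-strand genes written 5′ to 3′ from the GENCODE release 29 transcripts.
MT-TN, MT:5657-5729: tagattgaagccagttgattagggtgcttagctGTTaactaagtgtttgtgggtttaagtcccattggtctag
MT-TC, MT:5761-5826: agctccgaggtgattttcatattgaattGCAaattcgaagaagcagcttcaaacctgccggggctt
MT-TP, MT:15956-16023: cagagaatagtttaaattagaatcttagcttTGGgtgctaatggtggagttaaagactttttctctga
MT-TA, MT:5587-5655: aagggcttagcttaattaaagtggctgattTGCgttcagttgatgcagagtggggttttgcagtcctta

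MT-TN (ENSG00000210135) had 2329 counts in Nc1, against 3630 in Nc2 and 3640 in Nc3. MT-TC (ENSG00000210140) had 2229, 2611 and 2530 counts, and MT-TP (ENSG00000210196) had 1820, 2078 and 1895. Nc1 was the lowest library for each, and most clearly for MT-TN. MT-TN and MT-TC are separated by 31 bases, in which the origin of light-strand replication lies. MT-TA, for alanine, begins 1 base from MT-TN on the same strand, yet had 8, 15 and 18 counts. Per length, MT-TN exceeded MT-TA by 232 ± 42.1 times. MT-TY, for tyrosine, which overlaps MT-TC by 1 base, had 375, 366 and 433 counts, and MT-TC exceeded it per length by 6.31 ± 0.718 times.

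The remaining minus-strand transfer RNAs were low. MT-TE, for glutamic acid, lies next to MT-ND6 and had 25, 44 and 41 counts in these libraries. MT-TQ, for glutamine, had 14, 18 and 22 counts, and MT-TS1, for serine, had 6, 7 and 4. MT-TP and its plus-strand neighbour MT-TT, for threonine, lie 2 bases apart. MT-TT had 20, 21 and 22 counts, so MT-TP exceeded it per length by 89.3 ± 6.28 times. Counts on neighbouring transfer RNA genes therefore differed within a strand as well as between strands.

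On the plus strand, MT-TH, for histidine, led with 250, 255 and 162 counts. It is followed along the genome by MT-TS2, for serine, with 57, 45 and 50 counts and MT-TL2, for leucine, with 76, 50 and 49. These 3 genes form a run between MT-ND4 and MT-ND5, and MT-TH exceeded MT-TS2 per length by 3.79 ± 1.04 times. MT-TR, for arginine, between MT-ND3 and MT-ND4L, had 111, 97 and 114 counts. MT-TG, for glycine, between MT-CO3 and MT-ND3, had 82, 58 and 86.

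MT-TL1, the leucine transfer RNA that follows MT-RNR2, had 119 counts in Nc1, against 76 in Nc2 and 63 in Nc3. MT-TV, for valine, which lies between the ribosomal RNAs, had 32, 41 and 47. MT-TI, for isoleucine, had 59, 90 and 83 counts and MT-TM, for methionine, had 39, 23 and 32. The libraries did not share an order over these genes, since Nc1 was highest for MT-TL1 and MT-TM and lowest for MT-TV and MT-TI. MT-TM and MT-TV were not called as varying beyond counting noise in the test given below, whereas MT-TL1 and MT-TI were. MT-TK, for lysine, had 7, 30 and 4 counts, with Nc2 apart from the others. MT-TD, MT-TF and MT-TW had between 0 and 13 counts in each library. A count of 0, seen for MT-TW in Nc1, allows up to 3 counts, or 0.177 CPM, when counting error alone is considered.

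**Figure D3:**
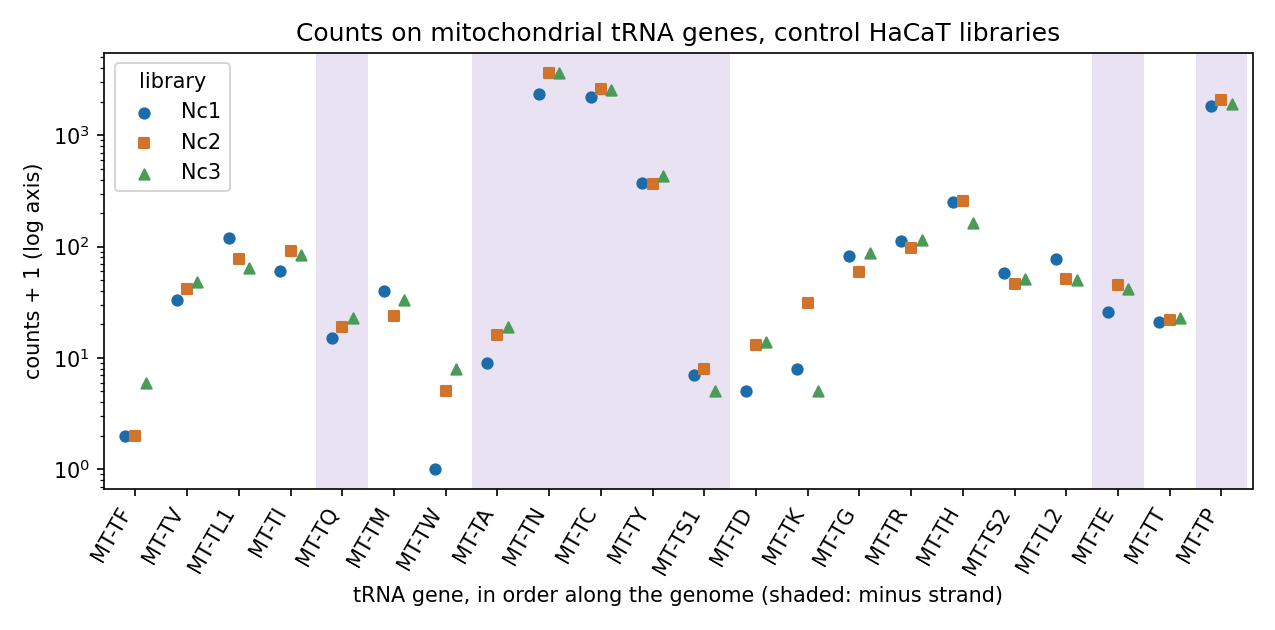
Counts plus 1 on a log axis for the 22 transfer RNA genes in their order along the genome, with 1 marker per control library and shading for minus-strand genes. MT-TN, MT-TC and MT-TP lie at or above 1820 counts in every library, whereas their neighbours MT-TA and MT-TT lie at or below 22.

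Whether a gene varied between control libraries by more than counting noise was asked with a chi-square test on its 3 counts, for which library sizes were scaled by TMM. P-values were adjusted by Benjamini-Hochberg over the 13290 genes whose mean reached 10 counts, and 56.9% of these genes were called. Of the 33 mitochondrial genes tested, 24 were called: all 13 messenger RNAs, both ribosomal RNAs and 9 of 18 transfer RNAs. Without Nc1, 2441 genes of the whole table were called in place of 7563, and 20 mitochondrial genes, among them all 13 messenger RNAs. At such counts the test calls nearly everything. Among 187 nuclear genes whose mean reached 10000 counts, 98.9% were called as well. The share called among the messenger RNAs is therefore close to that of other abundant genes.

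The size of the spread says more. The coefficient of variation of the messenger RNAs after TMM scaling ran from 6.93% for MT-CO2 to 18.7% for MT-CYB, with a median of 12.9%. Counting alone would give a median of 0.365%. Over the 187 abundant genes of the nucleus the median was 13.6%. MT-RNR2 varied by 2.44% and MT-RNR1 by 8.55%. Among the transfer RNAs, MT-TK varied most, by 111%, with a mean of 13.7 counts, and MT-TN varied by 30.4% with a mean of 3200 counts.

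The libraries differed in a shared direction. Relative to the mean of the others, all 13 messenger RNAs were lower in Nc1, by a median log2 difference of -0.29, and all 13 were higher in Nc2, by a median of 0.27. In Nc3, 2 were higher and 11 lower, with a median of -0.05. The 3 differences of a gene are not independent, since each library also enters the means of the others. With library totals in place of TMM sizes, MT-CO1 and MT-CO2 turned higher in Nc1 and the median of the 13 became -0.12, while the median over all genes whose mean reached 100 counts was 0.19, against 0.03 with TMM. With the mitochondrial total of each library as its size, MT-CO1, MT-CO2 and MT-ND3 were higher in Nc1 and the other 10 lower, and in Nc2 only 8 of the 13 were higher.

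By median, minus-strand transfer RNAs moved most. All 7 that were tested were lower in Nc1 than in the mean of the others, with a median log2 difference of -0.71 and a range of -1.24 to -0.29. This direction held for all 7 under each of the 5 scalings, with medians between -0.71 and -0.53. The TMM median is the value of MT-TQ and the lowest value that of MT-TA. Their means were 18 and 13.7 counts, and neither was called as varying by more than counting noise. The called genes ran from -0.97 for MT-TE to -0.29 for MT-TY, with MT-TC at -0.41 and MT-TP at -0.33. For MT-TN the log2 difference was -0.84 in Nc1, against 0.46 in Nc2 and 0.27 in Nc3. The 11 tested plus-strand transfer RNAs had a median of -0.00 in Nc1, with 5 higher and 6 lower, but 7 were higher with library totals and with mitochondrial totals, and 6 with DESeq2 size factors.

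The libraries also differed in other genes. With nuclear genes ranked by GC content and cut into 5 equal groups, the group of lowest GC was shifted by a median of 0.28 on the log2 scale in Nc1, by -0.22 in Nc2 and by -0.08 in Nc3. The group of highest GC was shifted by -0.34, 0.18 and 0.13. Ranked by annotated length instead, the group of shortest genes had a median shift of -0.32 in Nc1, against 0.24 in Nc2 and 0.04 in Nc3. Their part in the differences of the mitochondrial genes was not tested. Of the 6 blood markers, HBB, HBA1, HBA2, PTPRC and LYZ were higher in Nc1 and Nc2 than in Nc3. The other, S100A8, had 15, 25 and 15 counts. The 6 summed to 7501, 7582 and 30 counts, of which HBB held 6700, 6665 and 2. HBA1 and LYZ were at 0 in Nc3, and 2 of the 6 had at least 10 counts in each library. In Nc3 alone the mitochondrial share was 7.92%, and with globin genes left out of the totals the mean was 8.24%. Of the 7 markers listed for the labelled keratinocytes, 6 were detected. The exception was KRT14, the gene of a main basal keratin, with 9, 8 and 15 counts, and the detected KRT18 and KRT19 are also keratins of simple epithelia. Of the 6 fibroblast, 4 endothelial and 5 melanocyte markers, 2, 1 and 2 were detected.

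**Figure D4:**
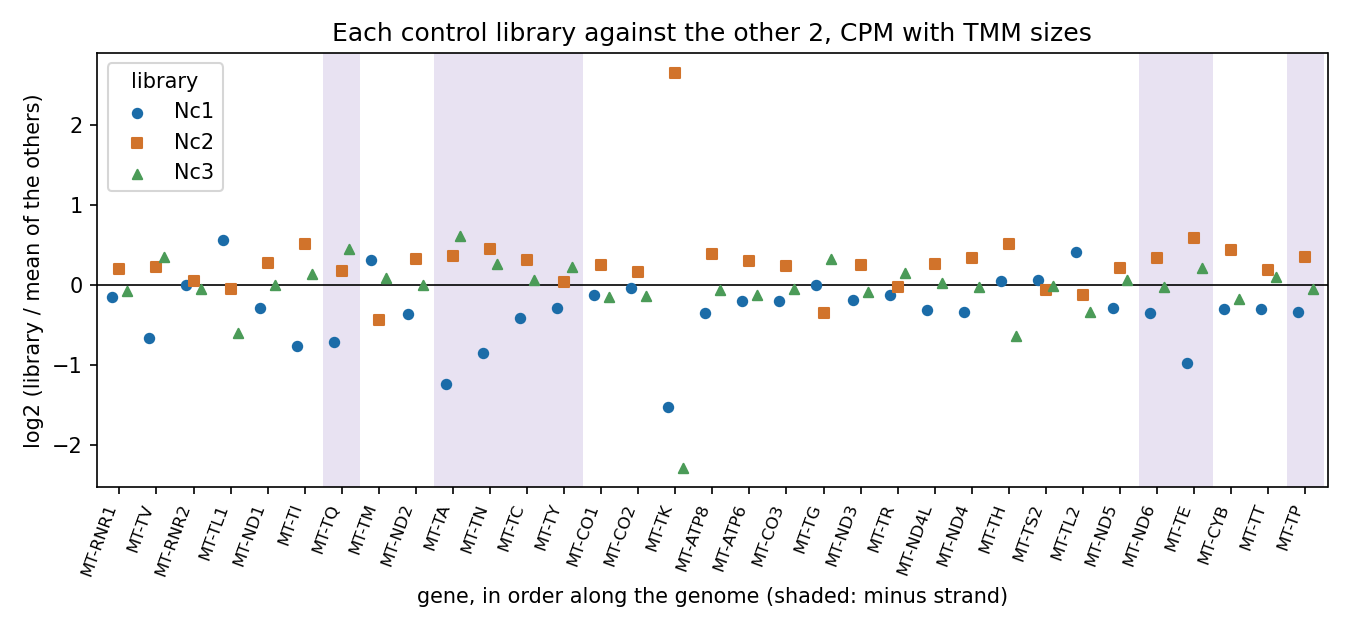
Log2 ratio of each control library to the mean of the other libraries, from CPM with TMM sizes, for the 33 mitochondrial genes whose mean reached 10 counts, in their order along the genome, with shading for minus-strand genes. All 13 messenger RNAs lie below 0 in Nc1 and above 0 in Nc2, and MT-TK spans the widest range, with -2.28 in Nc3 and 2.65 in Nc2.

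Nuclear copies of mitochondrial genes could have taken reads from the members. The table lists 405 genes named as such copies, of which 379 had no count in any library and 3 were detected. The copies summed to 0.692%, 0.766% and 0.721% of the mitochondrial counts in Nc1, Nc2 and Nc3. Nearly all of this lay in 3 pseudogenes of a stretch of chromosome 1, which held 99.7% of it. MTATP6P1 (chromosome 1, 633696 to 634376) had 5865, 6517 and 5518 counts, or 7.8 ± 0.254% of those of MT-ATP6. MTND2P28 (629640 to 630683) had 3370, 3957 and 3737 counts, or 6.8 ± 0.106% of those of MT-ND2. MTCO1P12 (631074 to 632616) had 289, 336 and 258 counts, or 0.0823 ± 0.00804% of those of MT-CO1.

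The 3 pseudogenes are close copies. In GENCODE release 29, MTATP6P1 differs from MT-ATP6 by 10 edits over 681 bases, an identity of 98.5%. MTND2P28 differs from MT-ND2 by 19 edits and has an identity of 98.2%, and MTCO1P12 differs from MT-CO1 by 21 edits and has an identity of 98.6%. MTATP8P1, in the same stretch, has an identity of 97.6% to MT-ATP8 and had 0, 1 and 1 counts. Of the copies elsewhere, MTND4P12 on chromosome 5 and the MT-RNR2-like gene MTRNR2L12 had between 1 and 8 counts in each library. MTCO1P12 thus had a slightly higher identity than MTATP6P1 and MTND2P28 and far fewer counts. How reads that match several places were treated is not given in the sources used here.

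The mitochondrial messenger RNAs were compared per length with nuclear subunits of the same complexes within each library. The 7 mitochondrial subunits of complex I had a median FPKM 332 ± 17 times that of the nuclear subunits NDUFS1, NDUFV1, NDUFB8 and NDUFA9. For complex IV the ratio to COX4I1, COX5A and COX6C was 123 ± 13.7, and for complex V the ratio to ATP5F1A, ATP5F1B and ATP5PB was 99.5 ± 18.5. For complex III, MT-CYB exceeded the median of UQCRC1, UQCRC2 and CYC1 by 39.9 ± 5.95 times. The highest of these 13 nuclear genes, the ATP synthase beta subunit ATP5F1B at 653 ± 32.9 FPKM, still lay below the lowest mitochondrial messenger RNA, MT-ND6 at 2301 FPKM. The nuclear subunits compared are 13 of many. These ratios depend on the annotated length of each nuclear gene, and other lengths were not tried.

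The nuclear factors that act on mitochondrial DNA and RNA were low in FPKM beside their products, with the same dependence on annotated gene length. Of 54 factors in 5 lists, 53 had at least 10 counts in each library, where 57% of protein-coding genes outside the mitochondrial genome did, and their median level was 7.64 FPKM. The exception was MSS51, with 5, 6 and 3 counts. Of the 53 tested, 33 varied by more than counting noise, near the 56.9% of all genes. Among the 9706 genes whose mean reached 100 counts, 6766 were called.

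All 9 genes of mitochondrial transcription were detected, with a median of 7.75 FPKM. POLRMT, the RNA polymerase of mitochondria, stood at 12 ± 1.75 FPKM, TFAM, which packages the DNA and binds its promoters, at 10.7 ± 1.88 FPKM, and TFB2M, which opens the promoter, at 14.1 ± 1.65 FPKM. TEFM, the elongation factor, stood at 3.93 ± 0.0945 FPKM. All 11 genes of replication and the nucleoid were detected, with a median of 7.01 FPKM. The DNA polymerase POLG stood at 7.01 ± 0.465 FPKM, the helicase TWNK at 9.69 ± 0.661 FPKM and ATAD3A, a membrane protein bound to nucleoids, at 30.2 ± 3.65 FPKM.

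RNA processing ranged widely over its 14 genes, all detected. RNase P, which cuts at the 5′ end of the transfer RNAs, has 3 protein subunits in human mitochondria. HSD17B10 stood at 216 ± 44.6 FPKM, TRMT10C at 18 ± 3.48 FPKM and the nuclease PRORP, with 60, 40 and 38 counts, at 0.392 ± 0.0817 FPKM. ELAC2, which cuts at the 3′ end, stood at 19.4 ± 0.858 FPKM. The subunit with the nuclease activity thus had the lowest level of the 14. TBRG4, a FASTK family protein, stood at 70.4 ± 12.4 FPKM.

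All 8 genes of polyadenylation, stability and decay were detected. LRPPRC and SLIRP, partners that bind and stabilise the messenger RNAs, stood at 16.6 ± 3.21 and 43.5 ± 10.6 FPKM. MTPAP, the polymerase that adds the tails, stood at 2.59 ± 0.449 FPKM, and PNPT1 and SUPV3L1, which degrade RNA together, at 7.51 ± 1.43 and 7.05 ± 1.11 FPKM. LRPPRC had its highest count, 3504, in Nc1 and SLIRP its lowest, 1511, against 2123 and 2182 in Nc2 and 2542 and 1978 in Nc3. These counts are not scaled to library size. Nuclear genes of the shortest annotated length had a median log2 shift of -0.32 in Nc1, and those of the longest 0.19. The part of this trend in the counts of LRPPRC and SLIRP was not tested.

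Among 12 translation factors, 11 were detected. TUFM, the elongation factor Tu of mitochondria, led at 195 ± 21.8 FPKM, followed by the membrane insertase OXA1L at 30.5 ± 1.34 FPKM. Genes of mitoribosomal proteins were taken by name alone, as the protein-coding genes whose symbols start with MRPL or MRPS and a digit. All 78 were detected, with a median of 32.4 FPKM, from MRPL38 at 0.33 ± 0.106 FPKM to MRPS34 at 241 ± 59.1 FPKM. Of these, 68 varied by more than counting noise, against 56.9% of all genes tested. Most mitoribosomal genes had a mean above 100 counts, and 6766 of the 9706 genes whose mean reached 100 counts were called.

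**Figure D5:**
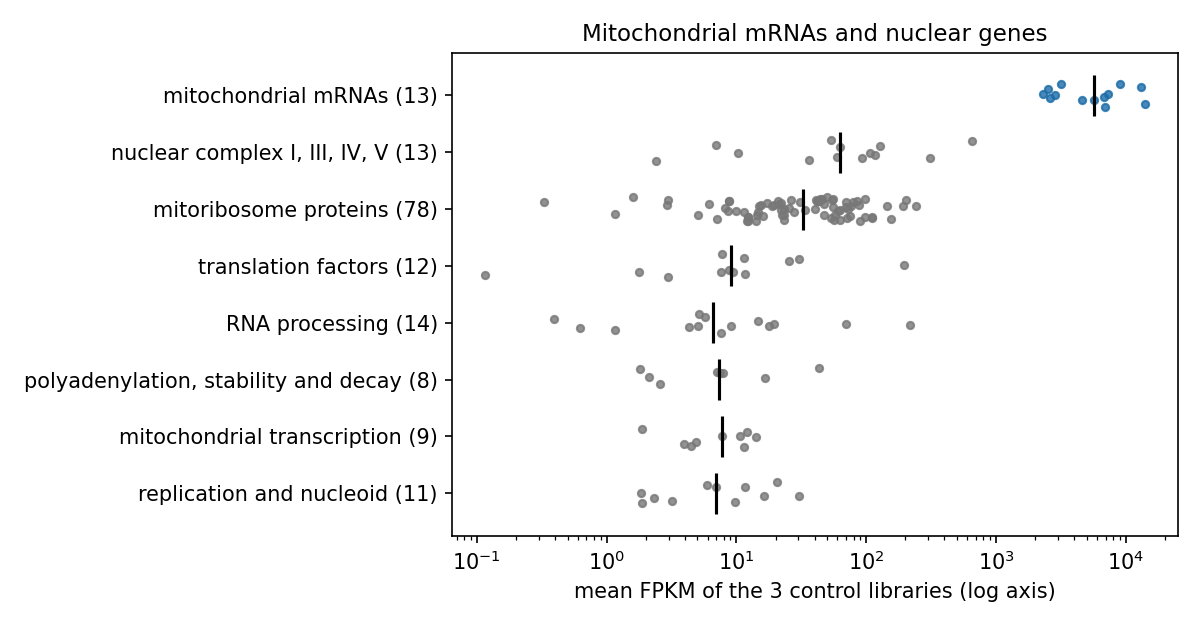
Mean FPKM over the control libraries on a log axis for the mitochondrial messenger RNAs, in blue, and for nuclear genes of the respiratory chain, the mitoribosome and 5 lists of factors, in grey, with 1 point per gene, the number of genes in parentheses and a vertical line at the median. The median of the mitochondrial messenger RNAs is 5647 FPKM, and that of the 13 nuclear subunits is 62.9 FPKM.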

How the data were processed

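Per the labels' protocols, total RNA of HaCaT cells was read from both ends, 150 bases each. HISAT2, StringTie, FastQC and GRCh38 appear in the submitters' processing notes, without versions or roles. The counts per gene were deposited by the authors without normalization. The FPKM were made by the authors and equal the count divided by gene length and by a constant of each library, which over the library's total was 1.05 for Nc1, 0.949 for Nc2 and 1 for Nc3. Of the library columns, 6 in each of the 2 tables (12 in all) match no sample in the labels and were left unused, so the planned edgeR comparisons between groups and their alternatives were not run. Some values of the unused columns were seen when the tables were opened.

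Library sizes came from TMM in edgeR 4.0.16, in R 4.3.3, over genes whose mean reached 10 counts. As an alternative they came from DESeq2 1.42.0, without that filter. No edgeR or DESeq2 test was run. Detection required 10 or more counts in every library. The chi-square test with Benjamini-Hochberg adjustment at 0.05 ran on all 13290 genes. It was first tested on simulated Poisson counts of these genes with known changes. All 37 members may be named. Full values were planned for messenger and ribosomal RNAs and for transfer RNAs with a mean of at least 10 counts, and for nuclear copies the 5 with most counts. MTATP8P1 was named after its values were seen, as were the factors taken as examples from the lists. The members and lists were chosen with earlier results of these data known. MTRES1 and PRORP were matched by identifier. Identity is 1 minus the edit distance over the longer length. Other tools were matplotlib 3.10.9, pandas 2.3.3, SciPy 1.17.1 and NumPy 2.4.6 in Python 3.11.15.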

Additional observations from a re-analysis of the deposited data

How the results depend on the processing

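No paired analysis was possible because only control libraries could be assigned, and the planned comparisons with treated cells and their alternatives were not run. The mean mitochondrial share of 8.23% became 7.49% when messenger RNAs were set against protein-coding counts only, and 8.29% with nuclear copies added. It lay between 8.02% and 8.39% with 1 library left out. By summed FPKM in place of counts, the share of the ribosomal RNAs was 6.71% in place of 10.9%, and that of the minus strand was 9.84% in place of 2.05%, since the short transfer RNAs weigh more per length. The ribosomal share ranged from 10.5% to 11.3% with 1 library left out, the transfer RNA share from 0.615% to 0.691% and the minus-strand share from 1.99% to 2.15%. With 1 of 3 libraries left out a mean can move little, so these ranges say little about stability. The 24 mitochondrial genes varying beyond counting noise were 23 with library totals, 24 with DESeq2 size factors and 24 with TMM sizes without mitochondrial genes. With a minimum mean of 100 counts they were 20 of 21 tested. With at least 1 count over all libraries together they were 24 of 37 tested. The number was 20 to 23 with 1 library left out. It was 24 with mitochondrial totals as sizes, where MT-ND3 was the messenger RNA not called. All 13 messenger RNAs were called under each of the other settings. With 1 library left out, the 7563 genes called in the whole table became 2441 without Nc1 to 7030 without Nc3. The settings with mitochondrial totals, with Nc3 alone and without globin genes were chosen after the data were seen. Depth limits the transfer RNAs with few counts.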
